A study of Homo sapiens with 8 samples.

Results

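Long noncoding RNAs (lncRNAs) are transcripts that are not translated. The 8 described here are known from prostate cancer or from cancer in general: PCGEM1, PCA3, PCAT1, MALAT1, NEAT1, PVT1, H19 and HOTAIR. The rule takes them by name, as lncRNAs with a known role, and they make up 8 of the 26443 genes with values. They were measured by RNA sequencing in C4-2B, an established prostate cancer line that descends from LNCaP and grows without androgen, after 7 days of treatment. The groups were ENZ at 10 uM, EPZ6438 (EPZ) at 1 uM, both agents together (Combination, whose doses are not given separately) and the solvent DMSO, with 2 libraries each. ENZ is the usual abbreviation of enzalutamide, which blocks the androgen receptor, and EPZ6438 is tazemetostat, which inhibits EZH2, the enzyme that methylates histone H3 at lysine 27. All groups are treatments of a single unmodified cell line, and the labels do not say whether the 2 libraries of a group are separate cultures. P-values therefore rest on the spread between libraries, which may be technical, and in bulk RNA fewer cells of a type and less RNA per cell cannot be told apart.

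LncRNAs act as RNA, often in the nucleus. MALAT1 gathers in nuclear speckles, bodies rich in splicing factors, and NEAT1 is the scaffold of paraspeckles, bodies built from its long isoform and RNA-binding proteins. PCGEM1, PCA3 and PCAT1 were first described in prostate cancer, and PCA3 RNA in urine is used as a marker of that disease. PVT1 lies beside the oncogene MYC, H19 is an imprinted RNA made from the maternal allele and high in the fetus, and HOTAIR, an antisense RNA of the HOXC cluster, is known for binding the EZH2-containing complex PRC2.

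The members differed in what they did. MALAT1 and NEAT1 were higher in ENZ, EPZ and Combination cells than in DMSO cells. PCAT1 was lower in all of these treatments. PVT1, with 163 to 251 fragments a library, passed the main test in no comparison. PCA3 and HOTAIR were near 0 in every library, and H19 and PCGEM1 are listed at 0 in all of them.

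MALAT1 and NEAT1 also share a feature of sequence. Both are transcribed from the same strand of chromosome 11, NEAT1 at chr11:65422774-65445540 and MALAT1 at chr11:65497688-65506516 in the GENCODE 29 annotation of GRCh38, and 52.1 kb separate the end of NEAT1 from the start of MALAT1. Both are mostly a single exon. MALAT1 and the long isoform of NEAT1 are known to end not in an ordinary poly(A) tail but in a triple helix. It folds from U-rich stretches and a genomically encoded A-rich end. The last 120 bases up to that A-rich end are shown because they set this pair apart from the other members; capitals mark the letters TTTTGCTTTT of a U-rich stretch, written as DNA, and the letters AAAAAGCAAAA of the A-rich end.
MALAT1 chr11:65505997-65506116 (+): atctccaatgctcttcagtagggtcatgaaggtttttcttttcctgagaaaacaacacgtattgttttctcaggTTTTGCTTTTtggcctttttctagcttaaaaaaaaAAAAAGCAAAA
NEAT1 chr11:65445421-65445540 (+): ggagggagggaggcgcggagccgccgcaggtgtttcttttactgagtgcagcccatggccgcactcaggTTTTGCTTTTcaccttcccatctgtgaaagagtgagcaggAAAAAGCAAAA

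In NEAT1 this window is the end of the long isoform NEAT1-202, of 22743 bases. In MALAT1 it ends 353 bases before the end of the transcript model MALAT1-202, of 8708 bases, since the primary transcript runs on past the end of the mature RNA. The A-rich letters are the last 11 bases of NEAT1-202 and the T-rich letters the last 10 of the longest run, 16 bases, that both windows share before it, so they were chosen from these 2 ends. They were then searched, on the transcript strand, in the 29519 lncRNA transcripts of the annotation with at least 120 bases. The A-rich letters occurred anywhere in 90 of them (0.305%) and within the last 120 bases in 16 (0.0542%). The T-rich letters within the 120 bases that end in the A-rich letters occurred in 2 transcripts, a share of 0.00678%, and these belong to MALAT1 and NEAT1. A match of letters is a description and says nothing about the folding or stability of the RNA in these cells.

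Libraries held an estimated 15423911 to 24409940 fragments, and values are FPKM, the authors' fragment values corrected for gene length and library size. As checks of the treatments, the androgen receptor target KLK3 averaged 224 FPKM in ENZ, 2801 FPKM in EPZ, 392 FPKM in Combination and 996 FPKM in DMSO cells, and FKBP5, another target, averaged 9.24 FPKM in ENZ, 80.1 FPKM in EPZ, 4.49 FPKM in Combination and 54.1 FPKM in DMSO cells. EZH2 itself averaged 24.8 FPKM in ENZ, 15.4 FPKM in EPZ, 6.38 FPKM in Combination and 25.8 FPKM in DMSO cells. The 12 markers of prostate luminal cells summed to 1198 to 1223 FPKM in ENZ and 4603 to 4652 FPKM in EPZ libraries. Their sum was 1294 to 1337 FPKM in Combination and 1987 to 2032 FPKM in DMSO libraries. All 12 of 12 averaged at least 1 FPKM in every group. No basal, endothelial or leukocyte marker did, and CD3E was at 0 throughout. Of 5 neuroendocrine markers, 1 did, in EPZ, and the summed level of the 5 was 1.16 to 1.44 FPKM in EPZ and 0.357 to 0.364 FPKM in DMSO cells. Of 5 fibroblast markers, 1 did in every group, COL1A2 was at 0 throughout, and the summed level of the 5 was 10.8 to 11 FPKM in Combination cells and 2.28 to 2.43 FPKM in DMSO cells. The part of these markers in the results was not tested. The estimated share of fragments assigned to no gene of the table was 21.8% and 21.9% in ENZ, 21.2% and 20.2% in EPZ, 33.9% and 32.2% in Combination, and 16.1% and 16.7% in DMSO libraries.

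Of the 8 members, 4 averaged 1 FPKM or more across the 8 libraries and entered the test, which ran on log2(FPKM + 1) over 11856 genes with limma and a Benjamini-Hochberg adjusted p under 0.05. In ENZ against DMSO, 3 of the 4 passed, with 2 higher and 1 lower, where 56.7% of all tested genes passed (27.9% higher and 28.8% lower). In EPZ against DMSO, 3 of 4 passed, again 2 higher and 1 lower, beside 55.8% of all genes (23.4% higher and 32.4% lower). In Combination against DMSO, 3 of 4 passed, 2 higher and 1 lower, beside 80.8% (33.3% higher and 47.5% lower). Against backgrounds this high a count of 3 of 4 is not a result about the members, and their levels and the sizes of their changes are given instead.

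**Figure D1:**
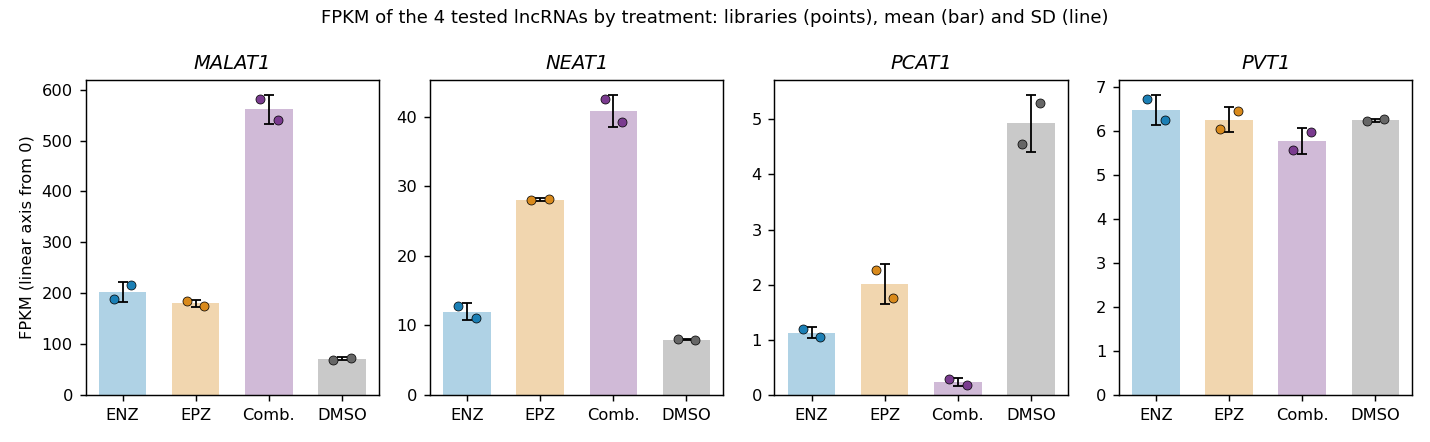
FPKM of MALAT1, NEAT1, PCAT1 and PVT1 (vertical axes, linear from 0, a scale for each gene) in ENZ, EPZ, Combination and DMSO cells; points are the 2 libraries of a group, bars their mean and lines the SD. MALAT1 and NEAT1 stood highest in Combination (561 and 40.8 FPKM), PCAT1 stood highest in DMSO (4.93 FPKM), and PVT1 lay between 5.56 and 6.72 FPKM in all 8 libraries.

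MALAT1, the nuclear speckle RNA, had 188 and 216 FPKM in ENZ libraries, 185 and 175 FPKM in EPZ libraries, 582 and 541 FPKM in Combination libraries, and 69.1 and 73.0 FPKM in DMSO libraries. Both Combination libraries stood far above the rest, both EPZ libraries lay just under both ENZ libraries, and both DMSO libraries were lowest. The values rest on 98162 and 77458 fragments in Combination and on 9323 and 12969 fragments in DMSO libraries, so counting error is small beside the spread between libraries. Mean MALAT1 was 7.9 times as high in Combination as in DMSO cells (561 ± 28.9 against 71.1 ± 2.8 FPKM, SD, n = 2 each). By FPKM it stood in places 15 and 17 among all genes in Combination libraries and in places 922 and 841 in DMSO libraries, and it took 0.77% and 0.699% of assigned fragments in Combination against 0.072% and 0.0767% in DMSO. An annotated antisense lncRNA, AP000769.2, overlaps 396 bases of MALAT1-202, and since no strand setting is given, its reads cannot be told apart from those of MALAT1.

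On the log2(FPKM + 1) scale, MALAT1 rose by 1.49 in ENZ (SE 0.0737, adjusted p = 4.3e-07), by 1.33 in EPZ (adjusted p = 1.1e-06) and by 2.96 in Combination cells (adjusted p = 6.4e-10), each against DMSO. These changes exceeded those of 99.3%, 99.07% and 99.55% of all tested genes. Combination was also above each single agent, by 1.47 over ENZ (adjusted p = 1.1e-07) and by 1.64 over EPZ (adjusted p = 5.1e-08). EPZ and ENZ are neighbours in the order of levels and were not told apart: the difference of EPZ minus ENZ was -0.16, with a 95% interval of -0.33 to 0.00074 and an adjusted p of 0.0897. It passed with quantile normalization (-0.32, adjusted p = 0.017), without the first ENZ library (-0.27, adjusted p = 0.0128) and with limma-voom on the recovered fragments (-0.19, adjusted p = 0.0039).

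Multiplying the fold changes of the single agents gives 512 FPKM for MALAT1 in Combination, and 561 FPKM was measured. The interaction term, which is 0 where changes add on the log2 scale, was 0.14 (95% interval -0.09 to 0.38, adjusted p = 0.304). Under 2 alternatives it passed the threshold, with quantile normalization at 0.57 (adjusted p = 0.0068) and with limma-voom at 0.28 (adjusted p = 0.0046).

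NEAT1, the paraspeckle scaffold, had 12.8 and 11.1 FPKM in ENZ libraries, 28.0 and 28.2 FPKM in EPZ libraries, 42.5 and 39.2 FPKM in Combination libraries, and 7.99 and 7.92 FPKM in DMSO libraries. The order from high to low was Combination, EPZ, ENZ and DMSO. Mean NEAT1 was 5.14 times as high in Combination as in DMSO cells (40.8 ± 2.3 against 7.95 ± 0.0514 FPKM, SD, n = 2 each), from 18623 and 14597 fragments against 2802 and 3653. The length that the authors' FPKM imply is 22741 bases, close to the 22743 of the long isoform, and the short isoform is contained in the long one, so the values do not tell the isoforms apart.

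NEAT1 rose by 0.53 in ENZ (SE 0.0745, adjusted p = 0.000273), by 1.70 in EPZ (adjusted p = 2.9e-07) and by 2.22 in Combination cells (adjusted p = 3.3e-09) against DMSO, on the log2(FPKM + 1) scale. The EPZ change exceeded that of 99.49% of tested genes and the Combination change that of 98.69%, while the ENZ change exceeded that of 89.62%. Each step in the order of levels passed: EPZ was above ENZ by 1.17 (adjusted p = 1.6e-06) and Combination above EPZ by 0.52 (adjusted p = 0.000132). Combination was above ENZ by 1.69 (adjusted p = 4.7e-08). The product of the single fold changes gives 42.3 FPKM, and 40.8 FPKM was measured, with an interaction of -0.008 (95% interval -0.24 to 0.23, adjusted p = 0.96). With quantile normalization the interaction was 0.43 (adjusted p = 0.0152).

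The FPKM ratio of the pair varied by group. The ratio of MALAT1 to NEAT1 FPKM was 14.6 and 19.5 in ENZ libraries, 6.62 and 6.19 in EPZ libraries, 13.7 and 13.8 in Combination libraries, and 8.65 and 9.23 in DMSO libraries. It lay above DMSO in both ENZ and both Combination libraries and below DMSO in both EPZ libraries, a difference given as values and not tested. Both genes rose most where the share of fragments assigned to no gene was highest, the Combination libraries, and the part of this share in the result was not tested. Scaling libraries to assigned fragments instead raises changes against DMSO, because every treated library had a larger unassigned share than the DMSO libraries. All MALAT1 and NEAT1 calls of the 3 comparisons with DMSO held, with changes of 3.28 and 2.53 in Combination. This scaling could only make these rises larger, so it does not test the part of the share. Both RNAs are long, and the 832 tested genes of at least 8000 bases had a median log2 change of 0.14 in ENZ, 0.05 in EPZ and 0.15 in Combination against DMSO, beside 0.0046, -0.05 and -0.15 over all tested genes. Their 95th percentile was 0.80 in ENZ, 0.62 in EPZ and 1.46 in Combination, so the NEAT1 change in ENZ lay within the range of long genes; the part of length in the results was not tested.

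**Figure D2:**
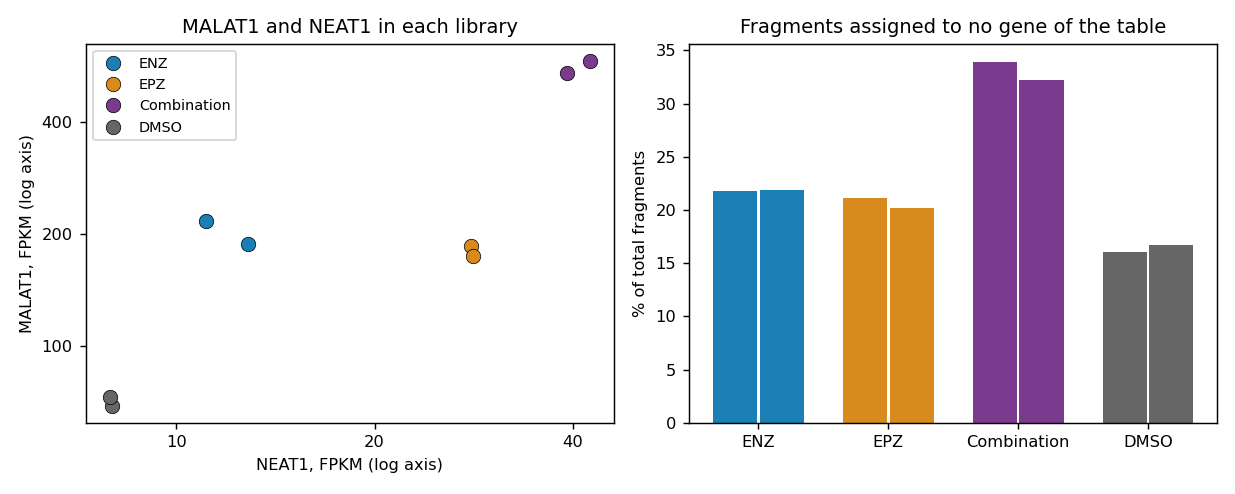
Left, MALAT1 against NEAT1 FPKM (both log axes), with a point for each of the 8 libraries; ENZ and EPZ libraries lie together at MALAT1 levels of 175 to 216 FPKM and apart at NEAT1 levels of 11.1 to 12.8 and 28.0 to 28.2 FPKM. Right, the share of all fragments that no gene of the table took, with a bar per library (linear axis from 0); Combination libraries stood at 32.2% and 33.9% and DMSO libraries at 16.1% and 16.7%.

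Among genes for paraspeckle proteins, more fell than rose in EPZ and Combination under every scaling tried. In ENZ this depended on the scaling. Of 20 paraspeckle proteins, all tested, 1 rose and 10 fell in ENZ, 1 rose and 17 fell in EPZ, and 1 rose and 19 fell in Combination cells, with median log2 changes of -0.14, -0.37 and -0.80 against DMSO. Over all tested genes, 27.9% rose and 28.8% fell in ENZ, 23.4% rose and 32.4% fell in EPZ, and 33.3% rose and 47.5% fell in Combination. The gene that rose was CIRBP, a cold-inducible RNA-binding protein, with 194 ± 5.51 FPKM in Combination and 60.5 ± 2 FPKM in DMSO cells (SD, n = 2 each; log2 change 1.66, adjusted p = 7.6e-09). The lowest were DAZAP1, an RNA-binding protein of paraspeckles, at 26.3 FPKM in Combination and 87.4 FPKM in DMSO cells (log2 change -1.70), and HNRNPA1, a splicing repressor, at 26.4 FPKM in Combination and 71.1 FPKM in DMSO cells (-1.40). The paraspeckle core protein gene PSPC1 averaged 13.7 FPKM in EPZ and 16.1 FPKM in DMSO cells (-0.22, adjusted p = 0.0121). The medians in EPZ and Combination were below 0 under every scaling tried. The ENZ median was 0.03 with quantile normalization, where 4 rose and 2 fell. In ENZ 3 rose and 3 fell when scaled to assigned fragments, and 3 rose and 4 fell with limma-voom. The 11 of 20 that passed in ENZ in the reported fit are near the 56.7% of all tested genes. Without the first DMSO library 4 passed in ENZ, where 11 did with it.

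Of 24 nuclear speckle and associated splicing proteins, 22 were tested. In ENZ 5 rose and 6 fell, in EPZ 3 rose and 11 fell, and in Combination 5 rose and 12 fell, with median changes of 0.03, -0.20 and -0.25. That is 11, 14 and 17 of 22, where 56.7%, 55.8% and 80.8% of all tested genes passed, with medians of 0.0046, -0.05 and -0.15, so the counts are near the background. The Combination median changed sign with the scaling, to 0.06 when scaled to assigned fragments and to 0.24 with quantile normalization. Without the first DMSO library 6 passed in ENZ, where 11 did with it. ALYREF, an adaptor for mRNA export, was lowest in all 3 comparisons and averaged 27.8 FPKM in Combination and 127 FPKM in DMSO cells (-2.16, adjusted p = 8.6e-10). SRSF1, a splicing factor, averaged 30.8 FPKM in Combination and 79.6 FPKM in DMSO cells (-1.34). The kinases CLK1 and CLK4, which phosphorylate such factors, were the highest in Combination, CLK1 at 18.3 against 7.76 FPKM in DMSO (1.14) and CLK4 at 6.96 against 2.22 FPKM in DMSO (1.30).

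**Figure D3:**
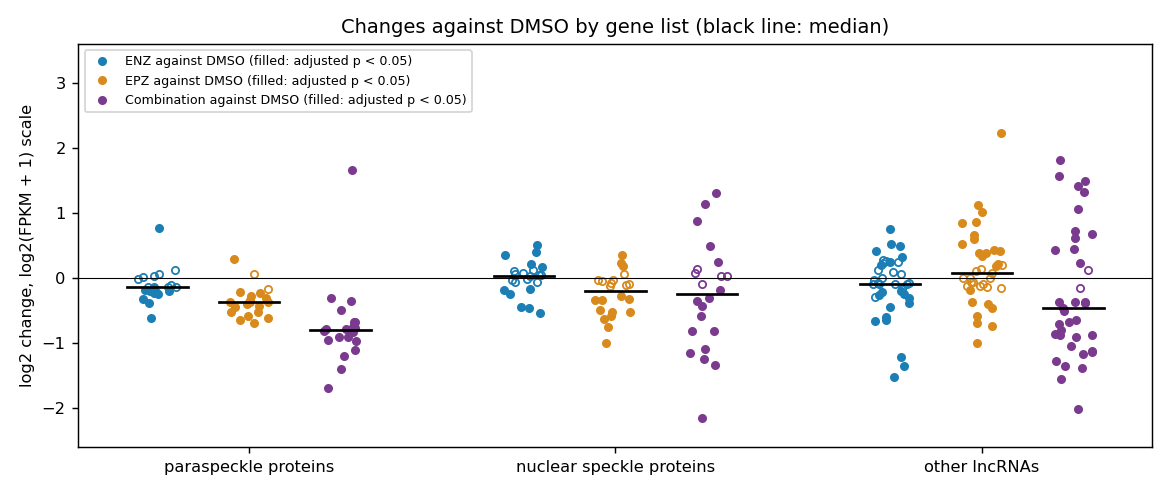
Log2 changes against DMSO (vertical axis, log2(FPKM + 1) scale) of the tested genes of 3 lists in ENZ, EPZ and Combination; each point is a gene, filled where the adjusted p is under 0.05, and the black line is the median. Of the 20 paraspeckle protein genes 19 lie below 0 and passed in Combination, while other lncRNAs lie on both sides of 0.

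PCAT1, an RNA first found in prostate tumours, went the other way. It had 1.20 and 1.06 FPKM in ENZ libraries, 2.26 and 1.75 FPKM in EPZ libraries, 0.286 and 0.184 FPKM in Combination libraries, and 4.56 and 5.29 FPKM in DMSO libraries. The order from high to low was DMSO, EPZ, ENZ and Combination. These values rest on few fragments: 46 in each ENZ library, 110 and 78 in EPZ, 11 and 6 in Combination, and 140 and 214 in DMSO libraries. Summed over both libraries, PCAT1 had 0.477 fragments per 1000000 in Combination (exact Poisson 95% interval 0.278 to 0.764) and 9.91 in DMSO cells (8.91 to 11), where the intervals cover counting error only.

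Mean PCAT1 was 4.36 times lower in ENZ, 2.45 times lower in EPZ and 20.9 times lower in Combination than in DMSO cells. On the log2(FPKM + 1) scale, which understates changes near 1 FPKM, it fell by 1.48 in ENZ (SE 0.114, adjusted p = 7.5e-06), by 0.98 in EPZ (adjusted p = 8.6e-05) and by 2.26 in Combination cells (adjusted p = 4.6e-08). With a pseudocount of 0.1 the Combination change was -3.92. In ENZ 0.616% of tested genes had a lower change, in EPZ 1.75% and in Combination 1.92%. Combination was below ENZ (-0.79, adjusted p = 0.000162) and below EPZ (-1.28, adjusted p = 4.6e-06). EPZ was above ENZ by 0.49 (adjusted p = 0.0053), a call lost without the first EPZ library (0.37, adjusted p = 0.0554) and with no filter on low genes (adjusted p = 0.0522).

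The product of the single fold changes gives 0.46 FPKM for PCAT1 in Combination, and 0.235 FPKM was measured. The interaction was 0.19 with a pseudocount of 1 (adjusted p = 0.368) and -0.63 with a pseudocount of 0.1, so its sign depends on the scale at this depth. PCAT1 lies on chromosome 8, on the plus strand; the length implied by its FPKM, 1992 bases, is that of the 2-exon transcript PCAT1-208 at chr8:127013154-127021014, and 714 kb separate that transcript from MYC.

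PVT1, which spans chr8:127794533-128101253 on the plus strand, starts 53.1 kb past the end of MYC, and its RNA is reported to stabilise the MYC protein. It had 6.72 and 6.24 FPKM in ENZ libraries, 6.05 and 6.46 FPKM in EPZ libraries, 5.56 and 5.97 FPKM in Combination libraries, and 6.22 and 6.26 FPKM in DMSO libraries. The ENZ range overlapped and the EPZ range enclosed the DMSO values, and both Combination libraries were under both DMSO libraries. PVT1 rests on 163 to 251 fragments a library. Log2 changes against DMSO were 0.05 in ENZ (95% interval -0.12 to 0.21, adjusted p = 0.608), 0.002 in EPZ (-0.16 to 0.16, adjusted p = 0.983) and -0.1 in Combination (-0.26 to 0.06, adjusted p = 0.223). Scaled to assigned fragments, the Combination change turned to 0.18 and passed (adjusted p = 0.0374), so the sign of PVT1 in Combination depends on the scaling.

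MYC, the neighbour of PVT1 and PCAT1 and a regulator of growth genes, averaged 42.7 ± 1.02 FPKM in ENZ, 70.0 ± 0.0171 FPKM in EPZ, 18.4 ± 0.666 FPKM in Combination and 75.7 ± 1.11 FPKM in DMSO cells (SD, n = 2 each). It fell in ENZ (-0.81, adjusted p = 2.6e-06) and Combination (-1.98, adjusted p = 8.6e-10) and did not pass in EPZ (-0.11, adjusted p = 0.0999). Its interaction passed (-1.06, adjusted p = 8.9e-06).

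**Figure D4:**
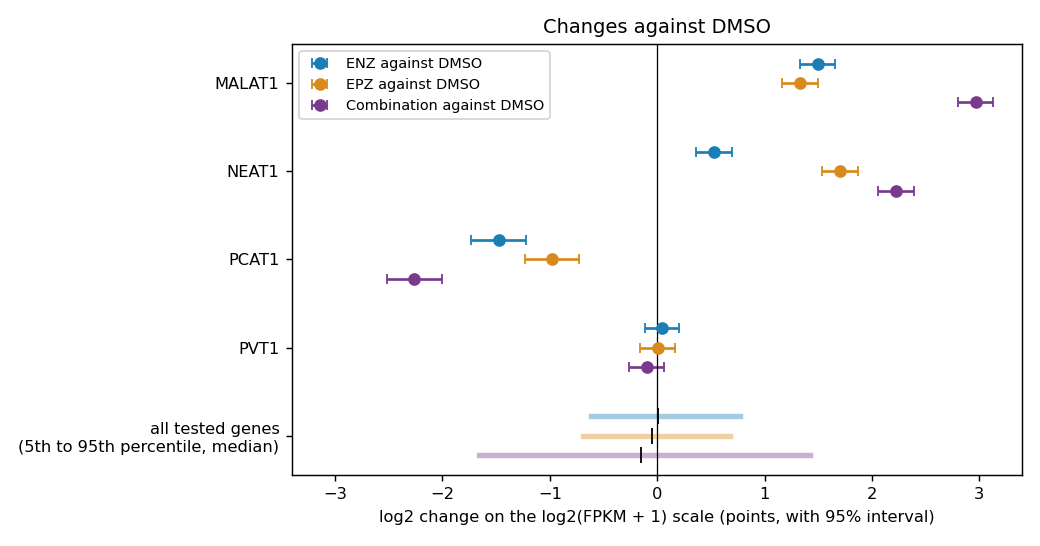
Log2 change against DMSO (horizontal axis, log2(FPKM + 1) scale) of the 4 tested lncRNAs in ENZ, EPZ and Combination, with 95% intervals from limma, and, at the bottom, the 5th to 95th percentile and median (tick) of all 11856 tested genes. MALAT1 and NEAT1 lie above and PCAT1 below that range in EPZ and Combination, and the PVT1 intervals all include 0.

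Between treatments, the order of levels gave these calls. In Combination against ENZ 3 of 4 passed (MALAT1 and NEAT1 higher, PCAT1 lower), beside 70.8% of all tested genes (25.3% higher and 45.5% lower). The same 3 passed in the same directions in Combination against EPZ, beside 72.9% (29.1% higher and 43.7% lower). In EPZ against ENZ 2 of 4 passed, NEAT1 and PCAT1, both higher, beside 50.5% (20% higher and 30.5% lower). The interaction passed for 0 of 4 members in limma, and 0 of 4 had an unadjusted p under 0.05, beside 39.6% of all tested genes (9.99% higher and 29.6% lower); it passed for 2 with quantile normalization and for 1 with limma-voom. The comparisons with DMSO share the DMSO libraries and are not independent of each other.

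The 4 other members were under the filter and were not tested with it. PCA3 had 3 and 1 fragments in ENZ libraries, 7 and 5 in EPZ, 1 and 1 in Combination, and 1 and 4 in DMSO libraries, which is 0.0117 to 0.0731 FPKM over all 8. Summed, that is 0.0974 fragments per 1000000 in ENZ, 0.257 in EPZ, 0.0561 in Combination and 0.14 in DMSO cells, with exact Poisson 95% intervals that overlap between all groups (0.133 to 0.449 in EPZ and 0.0455 to 0.327 in DMSO). With no filter it passed in no comparison; its smallest adjusted p was 0.062, in Combination against EPZ. PCA3-201, at chr9:76764436-76787569 on the plus strand, lies inside PRUNE2, which is on the opposite strand, and shares no exonic base with it.

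PRUNE2, a gene reported to act as a tumour suppressor in prostate cells and to be paired with PCA3, was well expressed. It averaged 13.6 ± 1.05 FPKM in ENZ, 17.4 ± 1.22 FPKM in EPZ, 3.41 ± 0.113 FPKM in Combination and 36.9 ± 0.803 FPKM in DMSO cells (SD, n = 2 each). It fell in all 3 treatments, by 1.38 in ENZ (adjusted p = 7.4e-07), by 1.05 in EPZ (adjusted p = 4.6e-06) and by 3.10 in Combination cells (adjusted p = 5.2e-10). Its fall in Combination exceeded the sum of the single ones (interaction -0.68, adjusted p = 0.000801). The strand setting of the counting is not given, so antisense reads within PRUNE2 cannot be told apart from its own.

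HOTAIR, at chr12:53962308-53974956 on the minus strand, had 1 and 0 fragments in ENZ libraries, 1 and 0 in EPZ, 5 and 0 in Combination, and 0 and 0 in DMSO libraries. Its highest value, 0.101 FPKM, came from 1 Combination library, and the other Combination library had none. In DMSO cells the count of 0 allows up to 0.194 and 0.148 fragments per 1000000 in the 2 libraries (3 fragments each). Its neighbours HOXC10 and HOXC11, developmental transcription factors of the same cluster, were also near 0: HOXC10 had 0 and 1 fragments in ENZ, 1 and 1 in EPZ, 5 and 9 in Combination and 0 and 0 in DMSO libraries. HOXC11 had 0 and 0 in ENZ, 0 and 1 in EPZ, 3 and 1 in Combination, and 0 and 0 in DMSO libraries. HOXC12, on the other side, was expressed, with 8.89 FPKM in ENZ, 4.08 FPKM in EPZ, 8.74 FPKM in Combination and 4.63 FPKM in DMSO cells, and rose in ENZ (0.83, adjusted p = 0.000831) and Combination (0.80, adjusted p = 0.00041) but did not pass in EPZ (-0.14, adjusted p = 0.418).

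H19, at chr11:1995176-2001470 on the minus strand, and PCGEM1, at chr2:192749845-192776899 on the plus strand, are listed at 0 in all 8 libraries. The annotation and counter behind the table are not given, and a row at 0 throughout implies no length, so whether these rows could take reads is not known and the 0 is not a measured low level. If they could, a limit of 3 fragments over all 8 libraries would be 0.0188 fragments per 1000000. None of 15 housekeeping genes was listed at 0 in any library. IGF2, the imprinted growth factor gene beside H19, had 0 to 5 fragments a library, and MRPL23, a mitochondrial ribosomal protein gene on its other side, averaged 2.19 FPKM in ENZ, 2.50 FPKM in EPZ, 1.15 FPKM in Combination and 3.10 FPKM in DMSO cells. MRPL23 fell in ENZ (-0.35, adjusted p = 0.0335) and Combination (-0.92, adjusted p = 6e-05) and did not pass in EPZ (-0.22). TMEFF2, a transmembrane protein gene 554 kb from PCGEM1, had 0 and 0 fragments in ENZ, 64 and 61 in EPZ, 6 and 3 in Combination, and 5 and 6 in DMSO libraries. It was under the filter and is given as values; EPZ libraries stood apart from all others.

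The genes around NEAT1 and MALAT1 did not move as a block. LTBP3, which binds latent TGF-beta, averaged 67.8 FPKM in ENZ, 50.6 FPKM in EPZ, 109 FPKM in Combination and 51.1 FPKM in DMSO cells and rose in ENZ (0.39) and Combination (1.08). SLC25A45, a mitochondrial carrier gene, averaged 8.05 FPKM in ENZ, 8.48 FPKM in EPZ, 13.1 FPKM in Combination and 5.48 FPKM in DMSO cells and rose in all 3 (0.48, 0.55 and 1.12). FRMD8, a FERM domain protein gene, averaged 16.1 FPKM in ENZ, 17.1 FPKM in EPZ, 12.6 FPKM in Combination and 20.7 FPKM in DMSO cells and fell in all 3 (-0.35, -0.27 and -0.67). Over the 12 listed neighbours of all members, 8 were tested, of which 3 rose and 5 fell in ENZ, 1 rose and 2 fell in EPZ, and 3 rose and 5 fell in Combination, where 56.7%, 55.8% and 80.8% of all tested genes passed. Across the alternatives 7 to 8 passed in ENZ, 2 to 4 in EPZ and 7 to 9 in Combination. These include fits with no filter, which gave the 9, and with a filter at 5 FPKM, which tested different numbers of these genes.

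Other lncRNAs did not share 1 direction. Of 79 listed symbols, some of them alternative names of the same gene, 74 were in the table and 37 were tested. Of these, 7 rose and 13 fell in ENZ, 15 rose and 8 fell in EPZ, and 12 rose and 23 fell in Combination against DMSO. Their median changes were -0.09, 0.07 and -0.46, beside 0.0046, -0.05 and -0.15 for all tested genes, of which 56.7%, 55.8% and 80.8% passed; scaled to assigned fragments the ENZ median was 0.00037. Without the first DMSO library 12 passed in ENZ, where 20 did with it. Of the 37 tested, 4 were called higher in all 3 comparisons and 5 were called lower in all 3. Over all tested genes, 12.6% rose and 17.4% fell in all 3. The 4 and 5 of 37 do not exceed these shares, so they are not a result about these lncRNAs.

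Among the other lncRNAs, RPPH1, the RNA of ribonuclease P, averaged 3.03 ± 0.847 FPKM in ENZ and 10.5 ± 0.51 FPKM in DMSO cells (SD, n = 2 each). Its log2 change was -1.52 (SE 0.236, adjusted p = 0.000495). RMRP, the RNA of the related ribonuclease MRP, averaged 6.31 FPKM in ENZ and 17.5 FPKM in DMSO cells (-1.35). Ribonuclease P is the enzyme that cuts the 3′ ends of MALAT1 and of the long NEAT1 isoform. RPPH1 was not among the 2 lowest called genes of this list in EPZ or Combination, and its level there is not given. The part of RPPH1 in the levels of MALAT1 and NEAT1 was not tested. SOCS2-AS1, an androgen-regulated antisense RNA, averaged 9.27 FPKM in EPZ and 1.19 FPKM in DMSO cells (2.23), and PCAT6 5.51 FPKM in EPZ and 2.02 FPKM in DMSO cells (1.12). In Combination the lowest were SNHG16, a snoRNA host, at 6.63 against 29.8 FPKM in DMSO (-2.02), and LINC00665, at 6.70 against 21.5 FPKM in DMSO (-1.55). The highest were HOTAIRM1, of the HOXA cluster, at 4.79 against 0.65 FPKM in DMSO (1.82), and CBR3-AS1, at 9.53 against 2.55 FPKM in DMSO (1.57). Antisense RNAs among these share the limit on strand.

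The genes nearest to each member in pattern were found by the root mean square difference of log2(FPKM + 1), each centred on its own mean over the 8 libraries, among 11277 genes. Nearest to MALAT1 were INHBA, a subunit of activin (0.153), PBXIP1 (0.184) and SEMA3B, a secreted semaphorin (0.195). INHBA averaged 1.73 FPKM in ENZ, 1.84 FPKM in EPZ, 8.32 FPKM in Combination and 0.0906 FPKM in DMSO cells. The scale understates changes near and below 1 FPKM, so a gene near a member in pattern need not share its fold change. Nearest to NEAT1 were VSTM2L (0.162), CYP1A1, a cytochrome P450 enzyme induced through the aryl hydrocarbon receptor (0.166), and TSC22D3, also called GILZ and induced by glucocorticoids (0.197). TSC22D3 averaged 14.3 FPKM in ENZ, 24.7 FPKM in EPZ, 34.6 FPKM in Combination and 7.62 FPKM in DMSO cells.

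Nearest to PCAT1 were SPG20 (0.128), RASSF3 (0.155) and IGF1, an insulin-like growth factor (0.163). SPG20 averaged 2.57 FPKM in Combination and 15.2 FPKM in DMSO cells, where PCAT1 averaged 0.235 and 4.93 FPKM. Nearness on this scale is therefore not likeness in fold change. IGF1 averaged 0.624 FPKM in ENZ, 1.46 FPKM in EPZ, 0.202 FPKM in Combination and 4.52 FPKM in DMSO cells. Nearest to PVT1 were DDB1, a subunit of a ubiquitin ligase (0.03), EFS (0.033) and TFIP11 (0.0398), genes whose levels hardly varied. Likeness of pattern over 8 libraries of 4 treatments is given as a description.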

How the data were processed

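The authors deposited FPKM (fragments per kilobase and library size) for 8 libraries; per the submitters' processing notes, STAR and hg38 were used (no versions). Counter, annotation, strand setting and any poly(A) selection: not given in the sources used here. Of 26475 rows, 26443 held values, and 28 date-like symbols were left out.

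Whole fragments were recovered from the steps of the FPKM (within 0.03 of a whole number for 94.5% of genes and 100% of tested genes). Total depth, 15423911 to 24409940 fragments, is an estimate whose scale came from 632 genes with 1 transcript, 61.2% of them within 5% of it.

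limma 3.58.1 (R 4.3.3) was fitted on log2(FPKM + 1) over all 8 libraries, for the 11856 genes averaging 1 FPKM or more, with a trend, 5.47 prior and 4 residual degrees of freedom, two-sided moderated tests and Benjamini-Hochberg adjustment within each of 7 comparisons. With 2 libraries a group, the spread was pooled over groups. The fit was tested on simulated data. Alternatives were a pseudocount of 0.1, no filter, a filter at 5 FPKM, scaling by median of ratios or quantiles, only the compared groups, the replicate number as a block, and each library left out. Scaling to assigned fragments and limma-voom on recovered fragments were chosen after seeing the data. Against DMSO, limma-voom called 4439 genes higher and 2740 lower for ENZ, 3622 higher and 3336 lower for EPZ, and 5455 higher and 4030 lower for Combination.

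Members and lists were chosen with earlier results of these data known. Named are all members, their listed neighbours (1 is not reported here), the 3 genes nearest each tested member in pattern, examples from the 2 highest and 2 lowest called genes of each list per comparison with DMSO, and KLK3 and FKBP5 as checks. Clone-named genes, pseudogenes, small RNAs and Y-linked genes were left out of the nearest genes. Coordinates and transcripts are from GENCODE 29 (GRCh38). Tables and figures used Python 3.11.15, pandas 2.3.3, numpy 2.4.6 and matplotlib 3.10.9.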

Additional observations from a re-analysis of the deposited data

How the results depend on the processing

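All calls of MALAT1, NEAT1 and PCAT1 against DMSO kept their direction and passed under every alternative run; PCAT1 was not tested at a mean of 5 FPKM. Of members called in EPZ against ENZ, 1 was left with no filter and with a mean of at least 5 FPKM, 1 to 3 when a library was left out (1 without the first EPZ library, 3 without the first ENZ library), and there were 3 with quantile normalization and with limma-voom. The interaction called 2 members with quantile normalization and 1 with limma-voom. PVT1 changed sign in ENZ against DMSO (-0.022 with median-of-ratios scaling, -0.044 with quantile normalization), in EPZ against DMSO (-0.0071 with median-of-ratios scaling) and in EPZ against ENZ (0.015 and 0.046 with these scalings). With scaling to assigned fragments and with limma-voom it was 0.18 and 0.20 in Combination against DMSO, 0.047 and 0.056 against ENZ, and 0.11 and 0.13 against EPZ. Leaving out a library moved PVT1 over -0.00084 to 0.092 in ENZ and -0.038 to 0.042 in EPZ against DMSO, and -0.0901 to 0.0028 in EPZ against ENZ. The PCAT1 interaction was -0.63 with a pseudocount of 0.1 and -0.75 with limma-voom. The NEAT1 interaction was 0.074 with median-of-ratios scaling, 0.43 with quantile normalization, 0.15 scaled to assigned fragments and 0.10 with limma-voom, and -0.11 to 0.089 without a library. The causes were not tested.

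Called genes that were higher made up 49.2% in ENZ, 41.9% in EPZ and 41.2% in Combination against DMSO; scaled to assigned fragments this was 62.3%, 52.4% and 57.4%, and with median-of-ratios scaling 39.0% in ENZ. In Combination against ENZ and against EPZ it was 35.7% and 40%, and 53.9% and 58.1% scaled to assigned fragments; in EPZ against ENZ it was 39.6%, and 50.3% with median-of-ratios scaling. Paraspeckle genes called in ENZ, 11 in the reported fit, were 5 with no filter, 6 with quantile normalization, 6 scaled to assigned fragments and 7 with limma-voom. The median of all genes in Combination was -0.15, and 0.12 scaled to assigned fragments. Same-numbered libraries did not deviate together (correlations of -0.015 to 0.109), so the numbers are not taken to pair them; with the replicate block, members called were 3, 3, 3, 3, 3, 2 and 0 in the 7 comparisons, as without it. The values of PCA3 and HOTAIR, and of PCAT1 in Combination, rest on few fragments and carry wide counting errors.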
